A study of Homo sapiens with 2 samples.

Results

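The 10 genes described here encode parts of the bone morphogenetic protein (BMP) pathway: the ligands BMP2, BMP4 and BMP7, the receptors BMPR1A and BMPR2, the target genes ID1, ID2 and ID3, and the inhibitory SMADs SMAD6 and SMAD7. They were taken by symbol from 21115 genes measured by RNA sequencing, and all 10 have a row. HCT116 cells, a long-established colorectal carcinoma line of human origin, had been exposed for 8 h to 1 µM CB-5083 or to the solvent DMSO, each as 1 library of polyadenylated RNA. CB-5083 is an inhibitor of p97, the product of VCP, which uses ATP to extract ubiquitinated proteins from membranes and complexes. No difference below has a replicate check, and no test between the treatments was possible.

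BMP ligands are secreted dimers that join type I receptors, such as BMPR1A, to type II receptors, such as BMPR2. The type II kinase activates the type I kinase, which phosphorylates SMAD1, SMAD5 and SMAD9, and these enter the nucleus with SMAD4. The ID genes and the inhibitory SMADs are direct targets of these complexes. ID proteins block basic helix-loop-helix transcription factors, and SMAD6 and SMAD7 act back on the receptors as feedback inhibitors. In the colon BMP signalling is known for opposing the stem cell state at the crypt base and for favouring differentiation.

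Depth came to 29273684 estimated counts under DMSO and 31997660 under CB-5083. Levels are given as CPM, counts brought to the same library size after scaling by trimmed means (TMM). DDIT3, the stress factor CHOP, was at 6.16 CPM under DMSO and 351 CPM under CB-5083, and VCP at 148 and 269 CPM. Of 10 epithelial markers 7 had a mean of at least 1 CPM, with EPCAM at 433 and 501 CPM, while VIL1, LGALS4 and CDX1 were at or near 0 in both libraries. CDH1, which encodes E-cadherin, was the 1 epithelial marker past the 2-fold threshold, at 66.7 and 243 CPM. Summed markers of mesenchymal cells came to 2.63 and 3.66 CPM, nearly all from COL1A1, those of endothelial cells to 0.154 and 0.288 CPM, and those of blood cells to 0.091 and 0.035 CPM. In such bulk RNA, fewer cells that express a gene and less RNA of it per cell cannot be told apart.

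With CB-5083, BMP4, BMPR2 and ID2 were at least 2-fold lower, and none of the 10 genes was higher by the same rule. BMP4 lay 6.92-fold lower, BMPR2 2.53-fold and ID2 2.14-fold. BMP7, SMAD7 and SMAD6 had folds of 2.31, 3.97 and 10.8 below DMSO, but did not meet the rule used for all genes. BMPR1A, ID1 and ID3 lay within 1.5-fold, and BMP2 was not detectable at this depth. The rule took a log2 ratio of (CB-5083 + 1) over (DMSO + 1), in CPM, of at least 1 in size, and at least 5 CPM in 1 library. It called 4.91% of 9543 genes lower and 7.22% higher. Of the 10 members 7 reached 5 CPM, and 3 of these 7 were lower. The members were chosen with earlier results of these data known, so their share is a description and no test. BMP7 reached 5 CPM through the DMSO library alone.

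**Figure D1:**
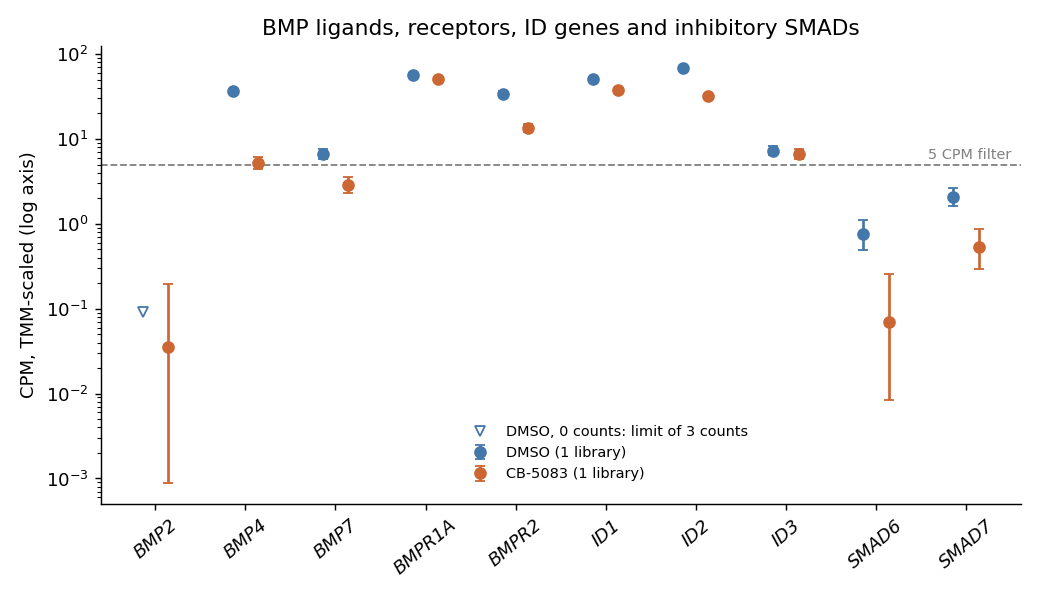
TMM-scaled CPM on a log axis for the 10 genes, with 1 library per treatment. Bars are 95% exact Poisson intervals for counting error, the open triangle marks the level that 3 counts would give where none was counted, and the dashed line is the 5 CPM filter. BMP4, BMPR2 and ID2 are lower under CB-5083, while BMPR1A and ID3 differ little.

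Which genes passed depended in part on the rule. With at least 20 estimated counts over both libraries and no pseudocount, a rule chosen after the data were seen, 6 of the 10 were at least 2-fold lower: BMP4, BMP7, BMPR2, ID2, SMAD6 and SMAD7. That rule called 11.8% of 13605 genes lower and 7.61% higher. Scaling also set the balance over all genes. The TMM scale gave 689 higher and 469 lower genes. Library totals gave 371 higher (3.86%) and 994 lower (10.3%), upper quartile scaling 571 (5.97%) and 597 (6.24%), and the authors' deposited log2 ratio 636 (6.67%) and 722 (7.57%). Under each of these 3 the members lower were BMP4, BMP7, BMPR2 and ID2.

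Among the ligands, BMP4, a morphogen that binds BMPR1A and BMPR2, was at 36.5 CPM under DMSO (95% exact Poisson interval 34.5 to 38.7) and 5.28 CPM under CB-5083 (4.47 to 6.19). These levels rest on 1204 and 150 estimated counts. The CB-5083 library thus kept 14.4% of the DMSO level, and the fold of 6.92 had a 95% exact binomial interval of 5.84 to 8.26. Intervals of folds and levels cover counting error only. Only 8 of the 9543 genes past the filter had a lower log2 ratio than the -2.58 of BMP4. The gene lies on chromosome 14 from 54416455 to 54423554 in hg19, the build of the files.

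BMP7, a ligand that pairs with other BMPs and also signals through ACVR1, was at 6.65 CPM under DMSO and 2.88 CPM under CB-5083, from 219 and 81.8 estimated counts. Its fold was 2.31 lower (1.78 to 3.01). The log2 ratio of -0.98 stopped just short of the threshold, and was -1.21 on the TMM scale without the pseudocount of 1 CPM. Scaling also moved it. With the pseudocount it was -0.97 with median-of-ratios scaling, -1.06 with upper quartile scaling and -1.25 with library totals. The authors' deposited table, with its own scaling and no pseudocount, has -1.30. BMP7 spans chromosome 20 from 55743809 to 55841707 in hg19. RefSeq places the antisense gene BMP7-AS1 inside it, and since no source used here states the strand setting of the counting, reads of the pair may not have been separated.

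BMP2, the close relative of BMP4, had 0 estimated counts under DMSO and 1 under CB-5083. Where none was counted, the limit is 3 counts, a level of 0.091 CPM for the DMSO library, and both values lie under that limit, so no fold is given. BMP4 made up 84.6% of the estimated counts of BMP4 and BMP7 together under DMSO (82.6 to 86.4) and 64.7% under CB-5083 (58.1 to 70.8). A share within 1 library does not move with the scaling between libraries. BMP4 therefore differed by more than BMP7 beyond counting error.

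BMPR2, the type II receptor most closely tied to BMP ligands, was at 34.2 CPM under DMSO (32.2 to 36.3) and 13.5 CPM under CB-5083 (12.2 to 14.9). That is 2.53-fold lower (2.25 to 2.85), and 240 of the 9543 genes had a lower log2 ratio than its -1.28. BMPR1A, its type I partner, was at 56.6 and 50.3 CPM, so that the CB-5083 level was 0.890 of that under DMSO (0.830 to 0.954). Its log2 ratio of -0.16 was above that of 2989 of the 9543 genes.

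Of the estimated counts of BMPR1A and BMPR2 together, BMPR2 held 37.7% under DMSO (35.9 to 39.4) and 21.2% under CB-5083 (19.3 to 23.1). The activin type II receptors ACVR2A and ACVR2B also bind BMPs. Within the 3 type II genes BMPR2 held 36.0% under DMSO (34.3 to 37.7) and 20.9% under CB-5083 (19.1 to 22.9). BMPR1A in turn held 70.4% of the counts of BMPR1A and the type I receptor gene ACVR1 under DMSO (68.6 to 72.2) and 60.5% under CB-5083 (58.5 to 62.5). None of these intervals overlapped between the libraries. BMPR1A lies on chromosome 10 from 88516396 to 88684945 and BMPR2 on chromosome 2 from 203241050 to 203432474. RefSeq lists the pseudogenes BMPR1AP1 and BMPR1AP2, which were not analysed here and could share reads with BMPR1A.

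**Figure D2:**
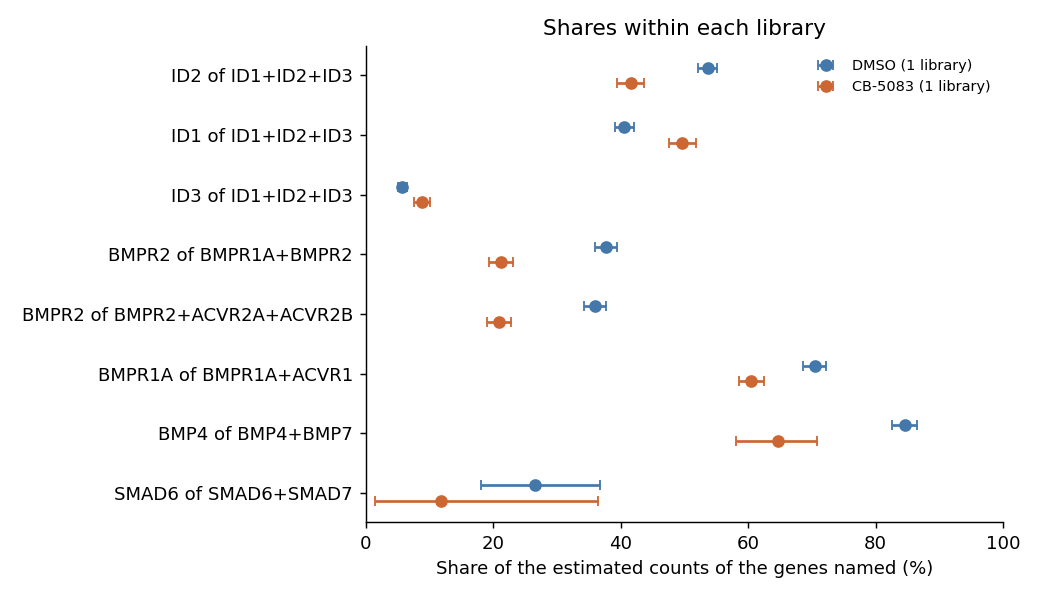
Share of one gene in the estimated counts of a small group, in percent, for each library, with 95% exact binomial (Clopper-Pearson) intervals. Shares do not depend on scaling between libraries. BMPR2 and ID2 take smaller shares under CB-5083, ID1 and ID3 larger ones, and the intervals of SMAD6 within SMAD6 and SMAD7 overlap.

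The ID genes differed among themselves. ID2 was at 68.1 CPM under DMSO (65.3 to 71.0) and 31.8 CPM under CB-5083 (29.7 to 33.9), 2.14-fold lower (1.98 to 2.32). ID1 was at 51.5 CPM under DMSO and 38.0 CPM under CB-5083, 1.36-fold lower (1.26 to 1.47) and within the threshold. ID3 had 7.31 and 6.68 CPM, a fold of 1.09 whose interval of 0.901 to 1.33 held 1, so on the TMM scale no difference in ID3 was detectable beyond counting error. Its log2 ratio of -0.11 moved beyond that interval with library totals, to -0.41.

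Of the estimated counts of the 3 ID genes, ID2 held 53.7% under DMSO (52.1 to 55.2) and 41.6% under CB-5083 (39.5 to 43.7). ID1 went from 40.6% (39.1 to 42.1) to 49.7% (47.6 to 51.8), and ID3 from 5.76% (5.08 to 6.51) to 8.75% (7.59 to 10.0). The pseudogene ID2B, on chromosome 3, was at 0.159 and 0.037 CPM, so it took few of the reads that could be shared with ID2. In hg19 ID1 spans chromosome 20 from 30193086 to 30194317, ID2 chromosome 2 from 8822113 to 8824583, and ID3 chromosome 1 from 23884421 to 23886285.

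Apart from BMP2, SMAD6 and SMAD7 were the members with the fewest counts. SMAD7, which recruits ubiquitin ligases to the receptors, had 69 estimated counts under DMSO and 15 under CB-5083, or 2.09 CPM (1.63 to 2.65) and 0.528 CPM (0.295 to 0.870). Its fold was 3.97 lower (2.25 to 7.47). SMAD6, which acts mainly on BMP rather than TGF-beta signalling, had 25 estimated counts under DMSO and 2 under CB-5083, or 0.759 and 0.070 CPM. The ratio of 10.8 lower has a counting interval of 2.69 to 93.9, which leaves its size uncertain. Both intervals lie wholly beyond 2-fold.

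Against SMAD1, one of the SMADs that they oppose, SMAD7 held 4.84% of the counts of the pair under DMSO (3.78 to 6.08) and 1.35% under CB-5083 (0.756 to 2.21). SMAD6 held 1.81% (1.17 to 2.66) and 0.182% (0.022 to 0.655) of its pair with SMAD1. Within SMAD6 and SMAD7 together, SMAD6 held 26.6% (18.0 to 36.7) and 11.8% (1.46 to 36.4), and these intervals overlap. SMAD6 lies on chromosome 15 from 66994674 to 67074337 and SMAD7 on chromosome 18 from 46446223 to 46477081, in hg19.

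The sequences before the starts of the ID genes and the inhibitory SMADs are shown because these 5 genes are the classical readouts of BMP signalling and differed in their ratios. Each is the 250 bases before the start annotated by RefSeq on GRCh38.p14, a later build than that of the files, read 5′ to 3′ on the gene's strand. These starts may differ from those of the gene models that were counted. For ID3 the spans of the 2 annotations differ by 15.5%. For SMAD6 they are 79664 bases in the files and 80614 in RefSeq, and for SMAD7 30859 and 31113. In each of these genes the gap is longer than the 250 bases shown. If it lies at the start of the gene, the bases before the counted start are not those printed. Capitals mark matches on either strand to 3 motifs that SMAD proteins are known to bind: GTCTAGAC and GGCGCC, each its own reverse complement, and CAGAC, which reads GTCTG on the other strand. None of the 3 contains another.
SMAD6, chr15:66701986-66702235, plus strand: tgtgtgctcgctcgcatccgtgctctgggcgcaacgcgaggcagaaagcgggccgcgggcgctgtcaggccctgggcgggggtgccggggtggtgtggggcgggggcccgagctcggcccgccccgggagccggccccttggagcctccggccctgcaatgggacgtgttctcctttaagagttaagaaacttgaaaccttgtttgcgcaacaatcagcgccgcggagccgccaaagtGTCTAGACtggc
SMAD7, chr18:48950966-48951215, minus strand: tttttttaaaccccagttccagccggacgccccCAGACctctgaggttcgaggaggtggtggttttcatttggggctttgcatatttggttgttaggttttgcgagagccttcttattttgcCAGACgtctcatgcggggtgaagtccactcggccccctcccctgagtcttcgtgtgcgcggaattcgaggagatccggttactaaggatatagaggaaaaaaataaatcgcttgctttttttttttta
ID1, chr20:31605039-31605288, plus strand: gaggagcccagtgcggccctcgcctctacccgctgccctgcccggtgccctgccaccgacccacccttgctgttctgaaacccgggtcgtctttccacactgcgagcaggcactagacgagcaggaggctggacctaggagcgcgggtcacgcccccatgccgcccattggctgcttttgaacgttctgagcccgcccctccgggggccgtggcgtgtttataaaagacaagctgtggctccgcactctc
ID2, chr2:8681806-8682055, plus strand: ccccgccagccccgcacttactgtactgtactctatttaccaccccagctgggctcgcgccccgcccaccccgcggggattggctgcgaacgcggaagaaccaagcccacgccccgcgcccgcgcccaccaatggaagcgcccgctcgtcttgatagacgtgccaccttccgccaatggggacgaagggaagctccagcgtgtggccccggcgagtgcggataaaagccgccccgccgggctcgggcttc
ID3, chr1:23559502-23559751, minus strand: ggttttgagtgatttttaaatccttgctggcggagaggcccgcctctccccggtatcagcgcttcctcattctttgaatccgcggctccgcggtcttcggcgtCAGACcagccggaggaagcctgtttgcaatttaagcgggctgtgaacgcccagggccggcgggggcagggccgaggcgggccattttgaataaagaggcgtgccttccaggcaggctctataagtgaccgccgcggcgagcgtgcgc

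The SMAD6 window held GTCTAGAC once, ending 4 bases before the start. Of 35114 such windows in the RefSeq table, 64, or 0.182%, hold that motif, against 16.4% for GGCGCC and 38% for CAGAC or GTCTG. The SMAD7 window, the outermost of 3 annotated starts, held CAGAC at 2 places, and the ID3 window held it once. None of the 3 SMAD7 windows held GTCTAGAC, which does not cover the bases between them or before another start. No match to the 3 motifs lay in the ID1 and ID2 windows, which says only that these letters are not there. Windows were found for 8 of the 10 members. Beyond those printed, that of BMPR2 held GGCGCC once and CAGAC at 2 places, the first of 3 BMP4 windows held GGCGCC and GTCTG once each, the third held GTCTG once, and so did the second SMAD7 window. A match is a description of sequence, and no factor binding was measured.

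**Figure D3:**
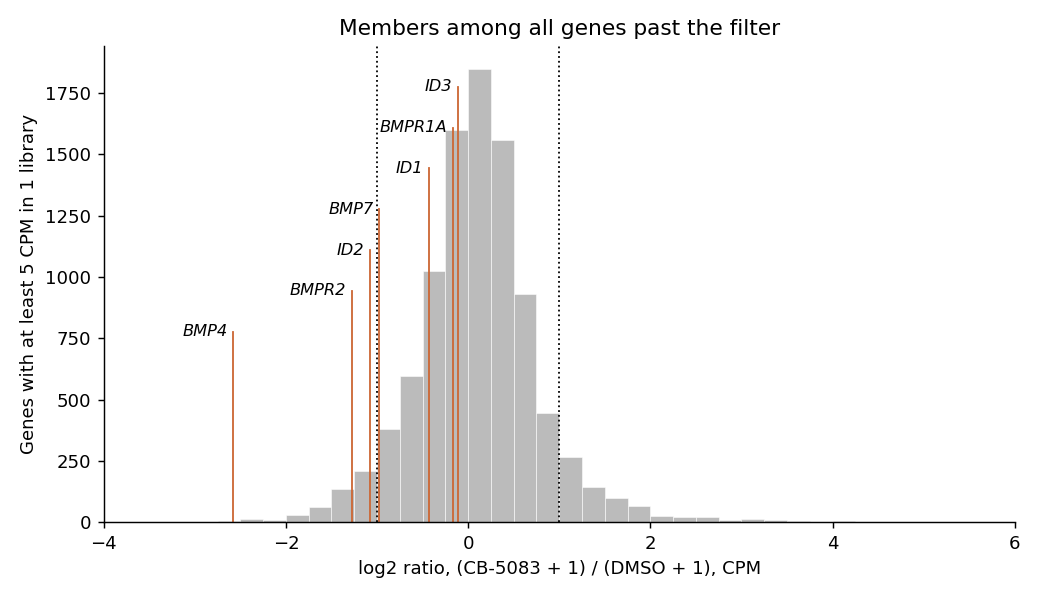
Distribution of the log2 ratio of CB-5083 over DMSO, with a pseudocount of 1 CPM, for the 9543 genes with at least 5 CPM in 1 library (grey bars, bins of 0.25). Vertical lines mark the 7 members past that filter, and dotted lines the 2-fold threshold. BMP4 lies far out in the lower tail, and BMPR2 and ID2 just past the threshold.

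Levels of different genes were compared per kilobase of transcript, with lengths from GENCODE release 29. BMPR1A and ID3 were left out, since their spans differ by 5.06% and 15.5% between the files and the RefSeq annotation. With DMSO the order was ID2 (50.0 CPM per kb), ID1 (46.2), BMP4 (20.5), BMPR2 (2.98), BMP7 (1.66), SMAD7 (0.916) and SMAD6 (0.198), with BMP2 at 0. The counting intervals of ID2 and ID1 overlapped, and those of the other neighbours down to SMAD6 did not. With CB-5083 ID1 stood first at 34.1 CPM per kb, followed by ID2 at 23.3, BMP4 at 2.96, BMPR2 at 1.18, BMP7 at 0.717 and SMAD7 at 0.231. The ID1 and ID2 intervals no longer overlapped there.

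The rest of the pathway was read from a list of 69 other genes, of which 60 have a row and 34 had a mean of at least 1 CPM. Of the 27 that reached 5 CPM in 1 library, 1 was higher, none lower and 26 neither, beside 7.22% higher and 4.91% lower over all genes tested. PCSK6, FURIN and FSTL3 reached 5 CPM through the DMSO library alone. The median log2 ratio of the 34 measured genes was -0.23, beside 0.04 over all 11964 genes measured in the same way. The lists and the median describe these libraries, with no test.

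**Figure D4:**
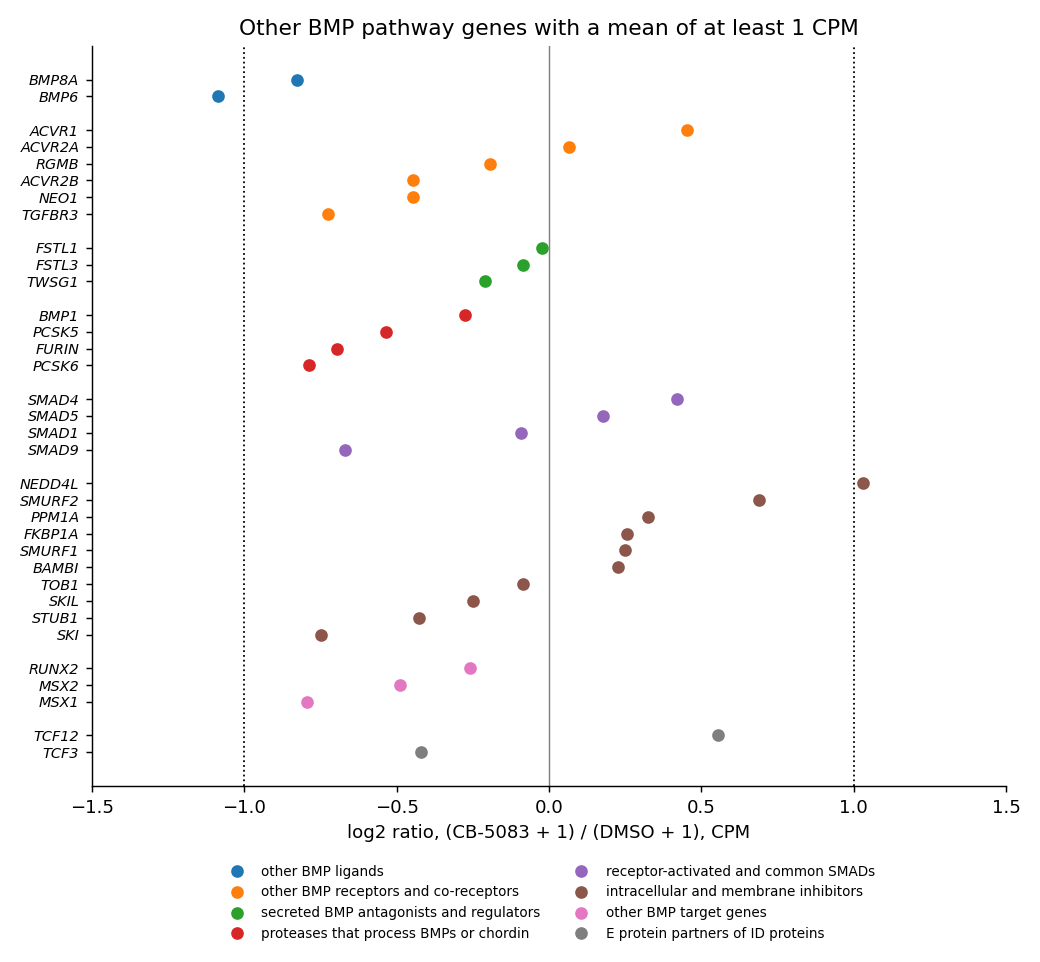
Log2 ratio of CB-5083 over DMSO, with a pseudocount of 1 CPM, for the 34 other BMP pathway genes with a mean of at least 1 CPM, coloured by role. Dotted lines mark the 2-fold threshold. NEDD4L lies just above 1, BMP6 just below -1 but under the 5 CPM filter, and BMP6 and BMP8A pass the mean of 1 CPM through the DMSO library.

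BMP6 and BMP8A were the other measured ligand genes, and neither reached 5 CPM. BMP6, known for its part in iron balance, was at 2.91 CPM under DMSO and 0.844 CPM under CB-5083, 3.45-fold lower (from 96 and 24 estimated counts). BMP8A was at 2.47 and 0.956 CPM. Both reached a mean of 1 CPM through the DMSO library, where they were higher. BMP8B, under that mean, was at 0.147 and 0.302 CPM, a difference within counting error. BMP10 and GDF6 were listed at 0 in both libraries.

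Of the 4 signal transducers downstream of the receptors, 3 reached 5 CPM in 1 library. SMAD5, the most abundant of those that BMP receptors phosphorylate, was at 158 and 179 CPM, a ratio above 1 that turned below 1 with library totals (log2 ratio -0.16). SMAD4, the common partner, was at 105 and 141 CPM, and SMAD9, itself a BMP target, at 3.33 and 1.72 CPM, 1.94-fold lower (1.37 to 2.77). None of the 3 past the filter met the 2-fold threshold. Of 6 receptors and co-receptors past the filter none did either. ACVR1, a type I receptor, was at 23.8 and 32.9 CPM, TGFBR3, or betaglycan, a co-receptor that binds ligands of the family, at 16.9 and 9.83 CPM, and NEO1, which binds co-receptors of the RGM family, at 40.7 and 29.6 CPM.

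The list of intracellular and membrane inhibitors gave 1 higher and 8 neither of 9 past the filter. Whether their products restrained BMP signalling in these cells was not measured. NEDD4L, a ubiquitin ligase that acts on activated SMADs, was at 54.5 CPM under DMSO and 112 CPM under CB-5083, 2.06-fold higher (1.95 to 2.19). Its log2 ratio of 1.03 was 0.95 in the authors' deposited table and 0.69 with library totals, below the threshold. SMURF2, a ubiquitin ligase that binds SMAD7, was at 275 and 444 CPM (1.62-fold), and FKBP1A, whose product binds type I receptors, at 326 and 389 CPM. SKI, a co-repressor of SMAD complexes, was at 59.7 and 35.2 CPM.

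Among secreted regulators TWSG1, which binds BMPs together with chordin, was the most abundant, at 118 and 102 CPM, and FSTL3, a follistatin relative, was at 5.10 and 4.75 CPM. GREM1, CHRDL1 and SOST were listed at 0 in both libraries. PCSK6 and FURIN, proprotein convertases that cut BMP precursors, were at 5.16 and 2.57 CPM and at 5.07 and 2.74 CPM. BMP1, a protease of the same list and under the 5 CPM filter, was at 4.43 and 3.48 CPM. The interval of its ratio of 0.786, 0.603 to 1.02, held 1. PCSK6 reached -1.10 on the log2 scale in the authors' deposited table, past the threshold. On the TMM scale it was -0.79 with the pseudocount and -1.01 without.

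The homeobox genes MSX1 and MSX2, further BMP targets, were at 39.0 and 22.1 CPM and at 10.6 and 7.25 CPM, with no call for either. TCF12 and TCF3, which encode E proteins that ID proteins bind, were at 100.8 and 148.4 CPM and at 42.2 and 31.3 CPM, within the threshold in opposite directions.

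**Figure D5:**
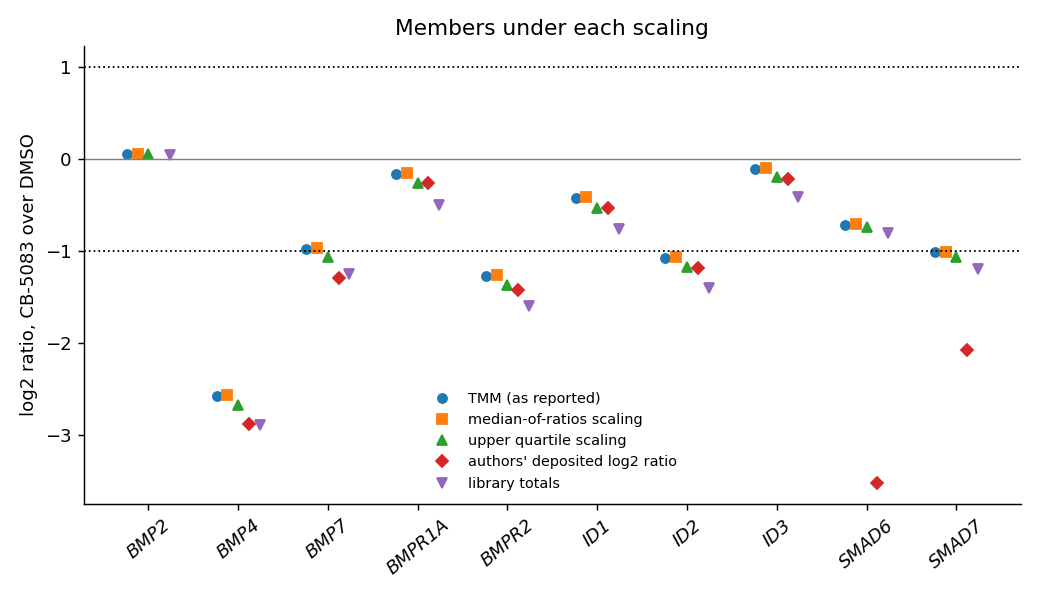
Log2 ratio of CB-5083 over DMSO for the 10 genes under 5 scalings, with a pseudocount of 1 CPM except in the authors' deposited ratio, which has none and gives no value for BMP2. Dotted lines mark the 2-fold threshold. BMP4, BMPR2, ID2 and SMAD7 lie below -1 under all 5, SMAD7 with fewer than 5 CPM, and BMP7 under 3. The SMAD6 and SMAD7 ratios lie lowest in the deposited ratio.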

How the data were processed

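RNA of 1 DMSO and 1 CB-5083 library was measured. Per the submitters' processing notes, RSEM 1.2.0 and hg19 were used, and no source used here names the aligner. Each gene has a deposited signal, which is an estimated count scaled by the authors so that the 75th percentile lies near 1000 (999.73 and 999.89). The design had assumed unscaled counts. Dividing by the commonest step, 1.079 and 1.1752, gave back estimated counts: 76.5% and 77.4% of values up to 5 counts were whole within 0.02. The authors' deposited log2 ratio is that of the signals, with no pseudocount. 1 row without a value was left out.

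Folds and CPM used TMM factors of 1.1258 and 0.8883 (trims of 30% and 5%). Intervals are 95% exact, from counts rounded to whole numbers. Starts are counted from 1. The genes named are the 10 members, list genes past the threshold, and in each list the most expressed gene and those with the largest ratios. Members and lists were chosen with earlier results of these data known. Scripts were tested on simulated data. Alternative scalings, pseudocounts, filters and thresholds were run. Python 3.11.15 was used with scipy 1.17.1, numpy 2.4.6 and pandas 2.3.3.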

Additional observations from a re-analysis of the deposited data

How the results depend on the processing

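BMP4, BMPR2 and ID2 were at least 2-fold lower under all 10 alternatives, and no member was higher under any. The number of members lower was 3, or 4 under 8 of the other 9, by BMP7 or, with a filter of 1 CPM or none, SMAD7. It was 6 with at least 20 estimated counts and no pseudocount, the 1 alternative chosen after the data were seen. Over the 10 alternatives 3.62% to 12.5% of all genes tested were lower and 3.86% to 17.4% higher. Of the other pathway genes, 0 were higher with library totals, upper quartile scaling or the authors' deposited ratio, and 2 at 1.5-fold or with 20 counts, against 1. The number lower, 0 as reported, was 4 with library totals, 1 with the authors' deposited ratio, no pseudocount, a filter of 1 CPM or no filter, and 5 at 1.5-fold or with 20 counts. Library totals moved the median log2 ratio of genes past the filter from 0.09 to -0.23. Of 30 named genes 19 moved beyond their counting interval with library totals, 9 with the deposited ratio and 7 with upper quartile scaling. No paired analysis was possible because each treatment is 1 library. Depth limits BMP2, SMAD6 and SMAD7, and variation between cultures is unknown for every gene.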

Other observations

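Some BMP pathway genes with few counts differed, and they were picked after their values were seen. NOG, which encodes the secreted antagonist noggin, went uncounted under DMSO and had 8 estimated counts under CB-5083, or 0.281 CPM. That is 3.09-fold the level that 3 counts would give in the DMSO library. The lower counting bound of the NOG fold over DMSO was 1.98, below that value. HEY1, a transcription factor gene that both BMP and Notch signals induce, was at 0.212 and 1.02 CPM, from 7 and 29 counts (4.80-fold higher, 2.06 to 13.0). TLL1, a protease that cuts chordin, had 27 counts under DMSO and 3 under CB-5083, a ratio of 7.76 lower. Counting intervals cover none of the variation between cultures.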
